A study of Mus musculus with 6 samples.

Results

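The minichromosome maintenance genes Mcm2 to Mcm10 were examined in liver RNA of mice aged 6 weeks. They are the 9 rows of the count table that carry these symbols, out of 26608 gene rows. The livers came from 3 mice of the genotype LiKM and 3 of the genotype LiK, 1 library per mouse. The labels do not spell out the genotype names, the alleles or the sex. From what is known of the published work, which the labels do not repeat, LiKM hepatocytes lack Mdm2, the ubiquitin ligase that keeps p53 low. LiK is not a wild-type group: both genotypes share a further alteration that is not reported here, and no wild-type liver was analysed here. The genes were chosen by their symbols, with the set selected on their fold changes between LiKM and LiK in these same 6 libraries, so their values, and how many of them were called, are given as a description. Other genes were tested, but their lists too were chosen with earlier results of these data known. The counts of called genes in those lists are therefore also given as a description.

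Before a cell copies its DNA, the products of Mcm2 to Mcm7 are loaded as a ring around the DNA at replication origins, and with Cdc45 and the GINS complex this ring becomes the helicase that unwinds the fork. Mcm8 and Mcm9 encode a related pair of helicase subunits that serve repair by homologous recombination. Mcm10 shares the name but not the helicase fold: it binds the assembled helicase and helps to start it. Genes of this machinery are classic targets of E2F transcription factors, are switched on as cells leave quiescence, and are low in the resting hepatocytes of an adult liver. In cultured cells, p53 is known to lower many of them through the cell cycle inhibitor encoded by Cdkn1a.

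Promoters are shown first, because the Mcm genes did not all move together and E2F sites are the best known feature of their control regions. RefSeq windows on GRCm38.p6, running from 250 bases before to 50 bases after an annotated start site, were at hand for 8 of the 9 genes (all but Mcm4). Each window was searched on both strands for the 4 E2F words TTTCCCGC, TTTGGCGC, TTTCGCGC and TTTGCCGC. Matches to them stand in capitals below.
Mcm5 promoter, chr8:75109259-75109558, plus strand: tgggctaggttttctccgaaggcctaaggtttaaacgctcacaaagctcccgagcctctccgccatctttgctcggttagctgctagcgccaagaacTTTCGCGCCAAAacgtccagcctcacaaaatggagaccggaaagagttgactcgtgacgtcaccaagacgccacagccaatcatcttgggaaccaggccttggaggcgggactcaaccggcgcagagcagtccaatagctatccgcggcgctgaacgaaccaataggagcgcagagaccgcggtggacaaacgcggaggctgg
Mcm6 promoter, chr1:128359656-128359955, minus strand: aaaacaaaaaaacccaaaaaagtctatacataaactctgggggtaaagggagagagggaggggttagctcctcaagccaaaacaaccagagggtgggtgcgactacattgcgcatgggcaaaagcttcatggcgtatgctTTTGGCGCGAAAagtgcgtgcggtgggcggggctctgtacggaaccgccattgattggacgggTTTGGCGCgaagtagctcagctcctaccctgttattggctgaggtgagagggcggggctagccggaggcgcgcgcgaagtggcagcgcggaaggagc
Mcm7 promoter, chr5:138171834-138172133, minus strand: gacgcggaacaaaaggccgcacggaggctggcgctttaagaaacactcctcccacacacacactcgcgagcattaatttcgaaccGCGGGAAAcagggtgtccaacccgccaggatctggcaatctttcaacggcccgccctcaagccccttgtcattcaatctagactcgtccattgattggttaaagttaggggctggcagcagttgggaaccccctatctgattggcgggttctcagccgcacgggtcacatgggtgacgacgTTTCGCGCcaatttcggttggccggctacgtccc
Mcm10 promoter, chr2:5012742-5013041, minus strand: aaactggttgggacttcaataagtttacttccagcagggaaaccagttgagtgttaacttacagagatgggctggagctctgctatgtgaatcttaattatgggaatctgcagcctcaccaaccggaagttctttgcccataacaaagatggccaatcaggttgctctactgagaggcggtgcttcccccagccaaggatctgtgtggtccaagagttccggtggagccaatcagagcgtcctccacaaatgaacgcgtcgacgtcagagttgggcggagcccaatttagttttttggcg
The 8 genes had 9 windows, since Mcm7 has a second one at chr5:138171217-138171516. A match was found in 5 of the 9, namely those of Mcm3, Mcm5, Mcm6 and Mcm8 and the Mcm7 window shown, whereas 2.26% of all 32851 windows of this length in the RefSeq table held at least 1. In Mcm5 the matches TTTCGCGC and GCGCCAAA overlapped, 153 and 149 bases upstream of the start site. Mcm6 had a similar overlapping pair at 110 and 106 bases upstream and a further TTTGGCGC at 47 bases upstream. The Mcm7 matches lay 165 bases upstream and 16 bases downstream. In Mcm3, GCGGGAAA and TTTGGCGC lay 19 and 38 bases downstream of the start, and in Mcm8 GCGCCAAA lay 39 bases downstream.

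No match was found in the windows of Mcm2, Mcm9 and Mcm10 or in the second Mcm7 window. The Mcm10 window ends in tttggcg, which is the searched word TTTGGCGC without its last letter. The bases after it were not searched, so a match that crosses the end of this window would not have been found. The word CCAAT, read by the factor NF-Y, occurred on either strand in all 9 windows, against 37.4% of all windows in the table. TTTGAA, the core of the cell cycle homology region, occurred only in Mcm2 (17.9% of all windows), and the STAT5 word TTCNNNGAA only in Mcm5 (8.30% of all windows). These matches describe letters in a window and do not show binding.

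The libraries held 19909993 to 20762712 counts in LiKM and 20778717 to 24874343 in LiK. Expression is reported in CPM, which divide a count by its TMM-adjusted library size. Genes were compared with edgeR's quasi-likelihood test over the 13537 genes that passed its expression filter, and a gene counted as called where its p, adjusted by the Benjamini-Hochberg method, was under 0.05. Mdm2 itself had 122, 125 and 60.5 CPM in LiKM against 28.7, 29.0 and 28.6 CPM in LiK, so its RNA was higher, not lower, in LiKM. Its count sums all exons of a p53 target gene and does not check the deletion. Markers of hepatocytes were abundant in all 6 livers, at a summed 128700 to 148300 CPM in LiKM and 118900 to 147200 CPM in LiK over the 7 that had a row, and 0 of the 7 were called by edgeR (1 at an unadjusted p under 0.05 and 0 by DESeq2). Nothing in the labels says more of how the mice were bred or kept. The p-values set the genotype difference against the spread between these animals only. A difference in breeding or keeping between the groups could not be told apart from genotype.

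All 9 Mcm genes passed the filter. Of these, 6 were called, where 5.92% of all genes tested were. They split into 5 called higher in LiKM, where 5.11% of all genes tested were, and 1 called lower, where 0.813% were. The genotypes did not overlap for 8 of the 9, as for 29.6% of all genes tested. The 3 LiKM livers lay wholly above the 3 LiK livers for 7 genes, as for 17.8% of all genes tested, and wholly below them for 1 gene, as for 11.8%. Since the genes were chosen with this contrast known, nothing is read from these shares.

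The genes of the helicase ring, Mcm2 to Mcm7, were all higher in every LiKM liver than in any LiK liver, and Mcm5 and Mcm2 differed most. Mcm5 had 29.1, 37.6 and 9.59 CPM in LiKM 1, LiKM 2 and LiKM 3, against 3.47, 2.01 and 3.94 CPM in LiK 1, LiK 2 and LiK 3. Its log2 fold change was 3.01 (SE 0.52), an 8.06-fold difference. Even the lowest LiKM liver, LiKM 3, held more than any LiK liver. Mcm2 had 14.3, 28.3 and 7.04 CPM in LiKM against 2.65, 1.66 and 3.69 CPM in LiK, a log2 fold change of 2.62 (SE 0.53). These rest on 33 to 90 Mcm2 counts and 40 to 96 Mcm5 counts per LiK library. In bulk tissue, fewer cells that hold a transcript and less of it per cell cannot be told apart.

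Mcm6, the most abundant ring gene in the LiKM livers on average, had 47.4, 54.0 and 18.4 CPM in LiKM against 6.02, 7.50 and 9.69 CPM in LiK, a log2 fold change of 2.37 (SE 0.40). Mcm3 stood at 16.4, 33.2 and 9.21 CPM in LiKM against 3.95, 5.18 and 4.47 CPM in LiK, with a log2 fold change of 2.11 (SE 0.44). For Mcm4 the values were 15.5, 31.5 and 8.24 CPM in LiKM and 4.24, 4.08 and 6.16 CPM in LiK. Its log2 fold change was 1.93 (SE 0.47), and it was the only ring gene outside the 5 called higher. In all 6 genes the order of the LiKM livers was the same, with LiKM 2 highest and LiKM 3 lowest.

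Mcm7 changed least among the ring genes. It had 28.4, 34.6 and 20.1 CPM in LiKM against 13.6, 12.8 and 12.7 CPM in LiK, a log2 fold change of 1.09 (SE 0.20). Its LiK values were the highest and the most even of the ring. Mcm7 shares exon bases with Cops6 and Ap4m1 on the opposite strand in the GENCODE M21 annotation, 64 and 321 bases, and the strand setting of the counting is not given in the sources used here. Neither of these was called by edgeR, with log2 fold changes of -0.01 (SE 0.14) for Cops6 and -0.10 (SE 0.15) for Ap4m1.

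**Figure D1:**
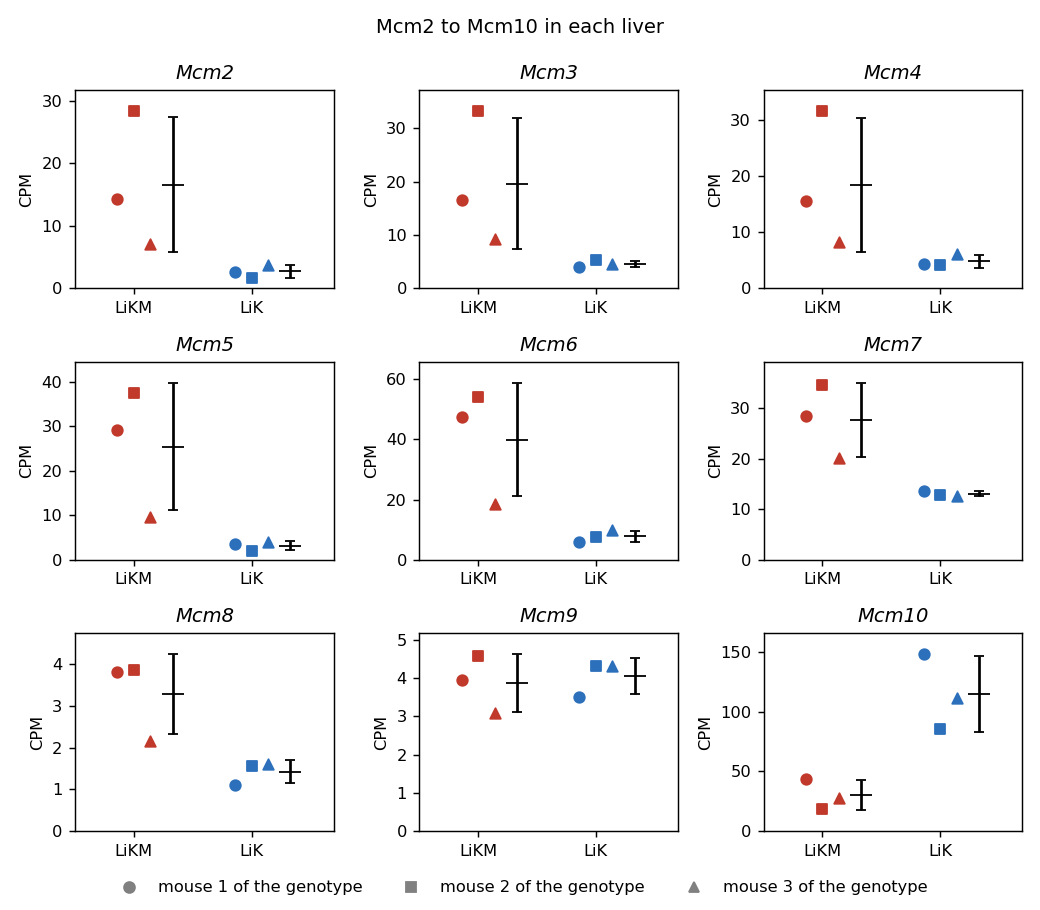
Normalised counts (CPM, linear axes that start at 0 and differ between panels) of the Mcm genes in the livers of LiKM mice (red, left) and LiK mice (blue, right); points are mice, and the bar beside them is the mean with its SD (n = 3). The LiKM points lie above the LiK points for Mcm2 to Mcm8, overlap them for Mcm9, and lie below them for Mcm10 (18.9 to 43.6 CPM in LiKM, 85.3 to 148 CPM in LiK).

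How many ring genes were called depended on which mice were included, and no test is read from these counts. Leaving out LiKM 3, the liver with the smallest difference, all 6 ring genes were called higher. Leaving out LiKM 1, LiKM 2, LiK 1, LiK 2 or LiK 3, 0 of the 6 were called by edgeR, although all 6 had an unadjusted p under 0.05 in each of these fits. With all mice, the Wald test of DESeq2 called all 6. Over the omissions the log2 fold change of Mcm5 ranged from 2.60 to 3.38, that of Mcm6 from 2.07 to 2.69 and that of Mcm7 from 0.87 to 1.25. The other ring genes leaned more on LiKM 2: without it the log2 fold change was 1.97 for Mcm2, 1.48 for Mcm3 and 1.28 for Mcm4, against 2.62, 2.11 and 1.93 with all mice.

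The recombination helicase genes Mcm8 and Mcm9 differed less, and 0 of them were called by edgeR (1 had an unadjusted p under 0.05, and DESeq2 called 1, Mcm8). Mcm8 was scarce, with 81, 85 and 45 counts in LiKM against 23, 31 and 39 counts in LiK. Its levels of 3.81, 3.86 and 2.17 CPM in LiKM lay above the 1.11, 1.56 and 1.60 CPM of LiK, with a log2 fold change of 1.20 (SE 0.31). Mcm9 overlapped between the genotypes, at 3.95, 4.58 and 3.09 CPM in LiKM against 3.52, 4.33 and 4.31 CPM in LiK, with a log2 fold change of -0.06 (SE 0.22). Of the exon bases annotated to Mcm9, 1748 are shared with Asf1a, a histone chaperone gene on the opposite strand, which had a log2 fold change of -0.02 (SE 0.14).

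Mcm10 was the only Mcm gene whose LiKM livers all lay below the LiK livers. It had 43.6, 18.9 and 28.1 CPM in LiKM 1, LiKM 2 and LiKM 3, against 148, 85.3 and 111 CPM in LiK 1, LiK 2 and LiK 3. The log2 fold change was -1.93 (SE 0.33), so that LiK held 3.81-fold more. In counts this was 928, 416 and 582 in LiKM against 3079, 1694 and 2716 in LiK. Leaving out single mice, its log2 fold change lay between -2.32 (without LiKM 1) and -1.70 (without LiKM 2). It was among the genes called with all mice and without LiKM 1, but not in the other 5 omissions.

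Set against the ring within each mouse, Mcm10 and the helicase genes were far apart in LiK and close in LiKM. The log2 CPM of Mcm10 minus the mean log2 CPM of Mcm2 to Mcm7 was 0.93, -0.92 and 1.33 in LiKM 1, LiKM 2 and LiKM 3. It was 4.91, 4.25 and 4.18 in LiK 1, LiK 2 and LiK 3. The means were 0.45 ± 1.20 in LiKM and 4.45 ± 0.40 in LiK (SD, n = 3 each), a difference of -4.00. The rule that picked these genes names this comparison, so no test is given. It stayed between -4.44 and -3.32 when any 1 mouse was left out. LiKM 2, the liver with the highest ring genes, had the lowest Mcm10, whereas LiKM 3 had the lowest ring genes and an intermediate Mcm10, so within LiKM the order of Mcm10 was not simply the reverse of the ring.

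To compare levels between genes, CPM were divided by the length of the principal coding transcript in GENCODE M21 (2910 to 4868 bases). Per kilobase, Mcm10 stood at 8.96, 3.88 and 5.77 CPM in LiKM, within the range of the ring genes of those mice in LiKM 1 and LiKM 3 and below all of them in LiKM 2. In LiK it stood at 30.5, 17.5 and 22.9 CPM per kilobase, above every other Mcm gene in every mouse. Mcm10 thus held 1.11, 0.335 and 1.48 times the mean ring level in LiKM and 16.7, 9.69 and 10.5 times that level in LiK. With all annotated exon bases as the length instead, these ratios were 0.982, 0.292 and 1.31 in LiKM and 14.8, 8.56 and 9.28 in LiK. The authors' annotation is not given in the sources used here, so both lengths are approximations.

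**Figure D2:**
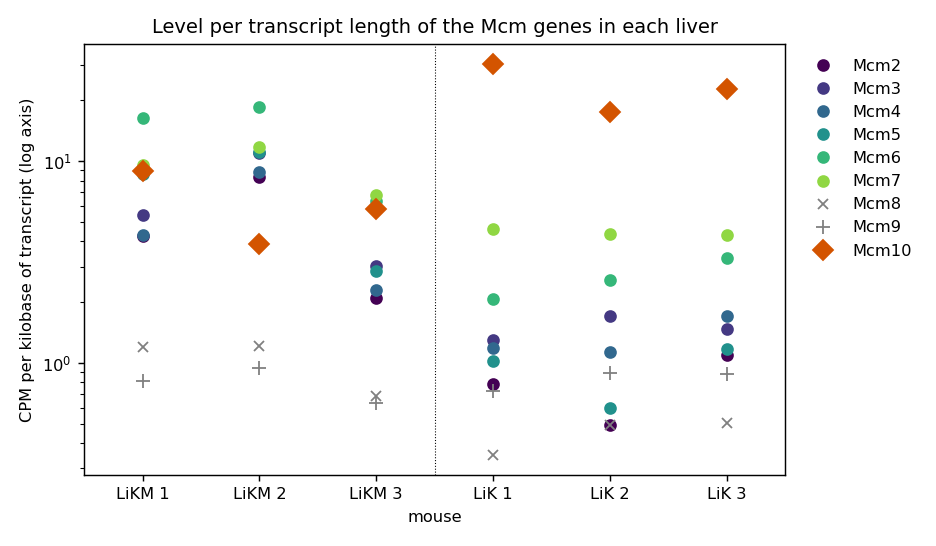
CPM per kilobase of principal coding transcript (log axis) of the 9 Mcm genes in each mouse, with LiKM left of the dotted line and LiK right of it. Mcm10 (orange diamonds) lies at 17.5 to 30.5 in LiK, above all other members, and at 3.88 to 8.96 in LiKM, near the ring genes.

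Mcm10 has 2 coding transcripts in GENCODE M21, whose start sites lie 447 bases apart on the minus strand of chromosome 2, at 5012791 (Mcm10-201) and 5012344 (Mcm10-202) on GRCm38. The promoter printed above belongs to the upstream one. Counts per gene do not show which of them the livers used. Of the coding genes next to Mcm10, Ucma had 0 counts in all 6 livers. Optn, an autophagy receptor gene on the other side, had 69.3, 70.5 and 70.2 CPM in LiKM against 103, 97.7 and 99.5 CPM in LiK and was called lower (log2 fold change -0.51, SE 0.09, edgeR Benjamini-Hochberg adjusted p = 0.0251). Phyh (log2 fold change -0.51, SE 0.18) and Ccdc3 (1.19, SE 0.35), the next genes out, were not called. No exon base of Mcm10 is shared with another annotated gene.

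Across the ring, the subunit genes did not keep the same proportions in the genotypes. Of the summed CPM per kilobase of Mcm2 to Mcm7, Mcm7 took 19.8%, 16.8% and 29.0% in LiKM 1, LiKM 2 and LiKM 3, against 41.9%, 40.0% and 32.8% in LiK 1, LiK 2 and LiK 3. The Mcm5 share was 17.8%, 16.0% and 12.2% in LiKM against 9.37%, 5.49% and 8.92% in LiK. Mcm6 took 29.1% ± 3.87 in LiKM and 22.7% ± 3.42 in LiK, and Mcm2 9.92% ± 1.87 in LiKM and 6.70% ± 1.97 in LiK (SD, n = 3 each). For these 4 genes the LiKM and LiK mice did not overlap, and LiKM 3 and LiK 3 were the nearest of the mice for Mcm7. The shares of Mcm3 (13.3% ± 2.29 in LiKM, 13.0% ± 2.43 in LiK) and Mcm4 (10.5% ± 1.95 in LiKM, 11.5% ± 1.45 in LiK) overlapped.

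**Figure D3:**
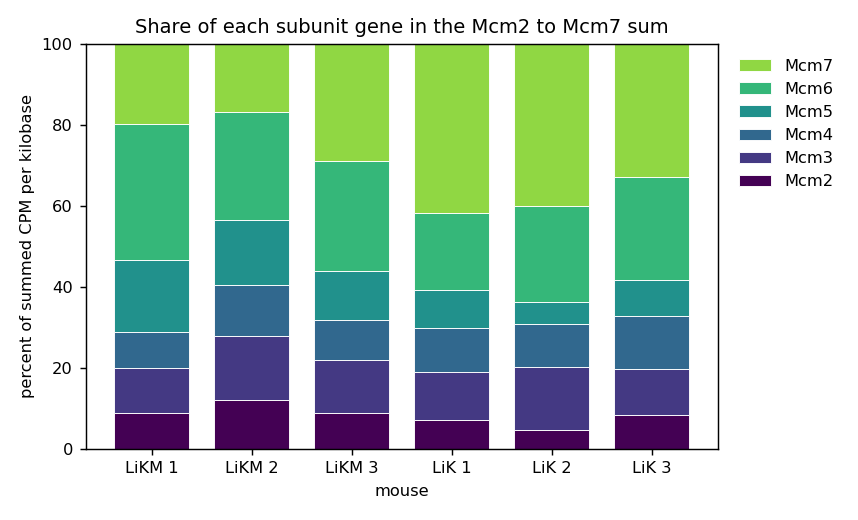
Stacked bars give the percent of the summed CPM per kilobase of Mcm2 to Mcm7 that each gene takes in each mouse, LiKM on the left. The Mcm7 share (top) lies between 16.8% and 29.0% in LiKM and between 32.8% and 41.9% in LiK, and the Mcm5 share between 12.2% and 17.8% in LiKM and between 5.49% and 9.37% in LiK.

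In LiK the order of the ring by level per kilobase was Mcm7, Mcm6, Mcm3, Mcm4, Mcm5 and Mcm2. Mcm7 (4.28 to 4.58 CPM per kilobase) and Mcm6 (2.07 to 3.33) stood apart from each other and from the rest. The ranges of neighbours among Mcm3, Mcm4, Mcm5 and Mcm2 overlapped over the 3 mice. Within each LiK mouse, however, Mcm4 lay above Mcm5 and Mcm5 above Mcm2, whereas Mcm3 lay below Mcm4 in LiK 3. In LiKM the means ran Mcm6 (13.7 ± 6.51 CPM per kilobase), Mcm7 (9.35 ± 2.47), Mcm5 (7.53 ± 4.25), Mcm3 (6.47 ± 4.06), Mcm4 (5.14 ± 3.32) and Mcm2 (4.90 ± 3.20). The ranges of all neighbours in that order overlapped over the 3 mice. Within each LiKM mouse, however, Mcm7 lay above Mcm5, Mcm3 above Mcm4 and Mcm4 above Mcm2. In LiKM 3 alone, Mcm6 lay below Mcm7 and Mcm5 below Mcm3. With all annotated exon bases as the length, Mcm6 in LiK (1.29 to 2.08) overlapped Mcm4 (1.14 to 1.72) and Mcm3 (1.05 to 1.38). Mcm4 then averaged above Mcm3 in LiK, and Mcm5 above Mcm7 in LiKM. The other places in the order of the means were the same with both lengths.

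Other genes of DNA replication were examined in 4 lists with 51 genes tested besides Mcm2 to Mcm10. By edgeR's test 12 rose in LiKM (23.5%), 0 fell and 39 were not called. Over all genes tested 5.11% rose. Among the licensing genes, which mark origins and load the ring, 2 of 9 rose. Cdt1, the loading factor, had 8.79 ± 3.94 CPM in LiKM and 1.97 ± 0.36 CPM in LiK (log2 fold change 2.15, SE 0.39, edgeR Benjamini-Hochberg adjusted p = 0.0277). Orc1, the origin recognition subunit that cycles with cell division, had 10, 29 and 15 counts in LiKM against 1 in each LiK library, so it passed the filter through its LiKM counts. Cdc6, the other loader, had 70, 171 and 16 counts in LiKM against 13, 4 and 13 counts in LiK and was not called (log2 fold change 3.09, SE 0.84). The other Orc genes had log2 fold changes between -0.01 and 0.37, and the list median was 0.37, against -0.0034 over all genes tested.

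Of the 16 helicase partners and activators, 4 rose, where 5.11% of all genes tested did. All 16 had positive log2 fold changes, where 49.5% of all genes tested did, and the list median was 1.08. Gins2, a subunit of the GINS complex that sits on the ring, had 3.40 ± 1.27 CPM in LiKM and 0.396 ± 0.170 CPM in LiK, a log2 fold change of 3.11 (SE 0.46, edgeR Benjamini-Hochberg adjusted p = 0.0204). Clspn, a fork mediator of the checkpoint, rose by 3.22 (SE 0.52), Gins3 by 1.87 (SE 0.37) and Topbp1, a scaffold needed to fire origins, by 1.10 (SE 0.22) on the log2 scale. In LiK 1, LiK 2 and LiK 3, Gins2 had 11, 9 and 5 counts, Clspn 17, 5 and 6, and Gins3 9, 11 and 14. Gins2, Clspn and Gins3 thus passed the filter through their LiKM counts. So did Cdc7, with 13, 7 and 11 counts in these LiK libraries, and 5730590G19Rik, with 6, 6 and 8, which were not called. The share of positive fold changes includes all of these genes, so it is partly set by the filter. The GINS genes differed among themselves, since Gins4 had 14.5 ± 3.12 CPM in LiKM and 14.2 ± 0.70 CPM in LiK. Cdc45, the remaining core partner, was not called (log2 fold change 1.59, SE 0.37, edgeR adjusted p = 0.0524).

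Among 23 genes of the replicative polymerases, the sliding clamp and its loader, 6 rose, where 5.11% of all genes tested did. The median log2 fold change of the list was 0.66. Lig1, which joins Okazaki fragments, had 11.5 ± 4.22 CPM in LiKM and 2.47 ± 0.36 CPM in LiK (log2 fold change 2.21, SE 0.32, edgeR Benjamini-Hochberg adjusted p = 0.0185). The primase gene Prim1 rose by 1.61 (SE 0.28), the flap nuclease gene Fen1 by 1.69 (SE 0.32) and the clamp loader gene Rfc2 by 0.66 (SE 0.13) on the log2 scale. Pcna, the clamp itself and also a p53 target, was not called (log2 fold change 0.80, SE 0.20). Of 3 tested genes in the list of MCM-binding proteins, 0 were called by edgeR (0 at an unadjusted p under 0.05, and 0 by DESeq2). Mcmbp, which helps to keep free MCM complexes in the nucleus, had 30.3 ± 3.36 CPM in LiKM and 29.3 ± 1.82 CPM in LiK. Mcm3ap, named for binding Mcm3, had 27.8 ± 1.10 CPM in LiKM and 31.3 ± 3.59 CPM in LiK. The remaining row, 6030422M02Rik, had a log2 fold change of -0.51 (SE 0.40). Whether its protein binds MCM subunits was not checked here.

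These counts also moved with single mice. Without LiKM 2, LiK 1 or LiK 2, 0 of the 51 genes were called by edgeR, with 26 to 28 at an unadjusted p under 0.05. The count was 5 without LiKM 1, 3 without LiK 3 and 18 without LiKM 3, and DESeq2 on all mice called 25.

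**Figure D4:**
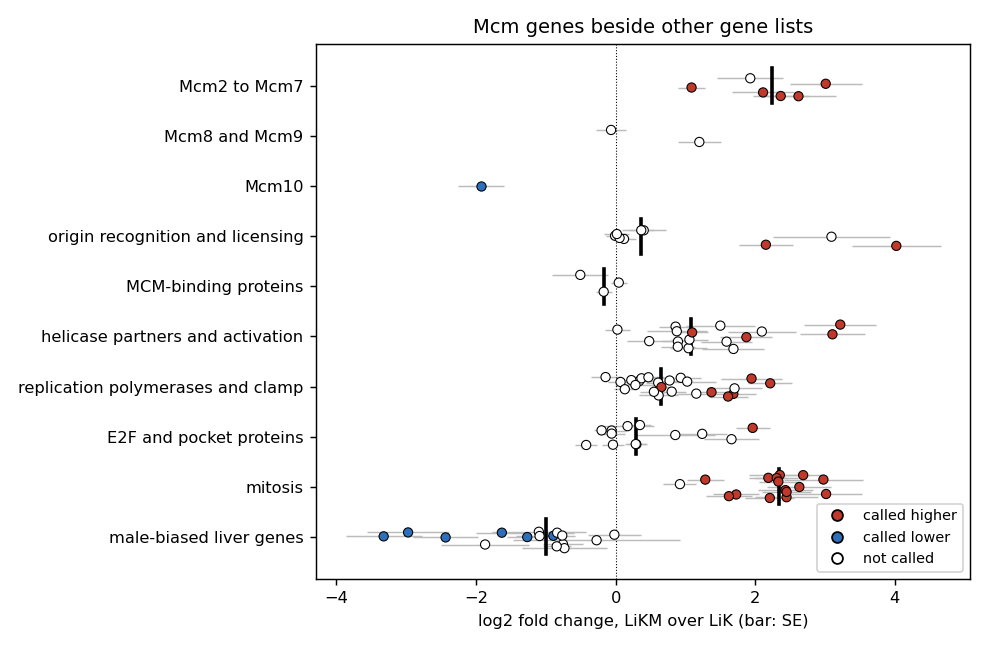
Log2 fold changes of LiKM over LiK (x axis, with SE) of the tested genes of each list; red points were called higher, blue points lower and open points were not called, and black bars are medians of lists with more than 2 genes. Mcm2 to Mcm7 (median 2.24) lie near the mitosis genes (median 2.34), whereas Mcm10 (-1.93) lies on the side of the male-biased liver genes (median -0.99).

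The E2F factors and their pocket protein partners were mostly not called. Of 13 tested, 1 rose, where 5.11% of all genes tested did. This was Rbl1, a pocket protein gene that is itself an E2F target (8.64 ± 1.80 CPM in LiKM, 2.20 ± 0.48 CPM in LiK, log2 fold change 1.96, SE 0.25, edgeR Benjamini-Hochberg adjusted p = 0.0135). E2f1, an activating member, had 9.18 ± 4.24 CPM in LiKM and 2.91 ± 0.52 CPM in LiK and was not called (log2 fold change 1.66, SE 0.39, edgeR adjusted p = 0.055). The list median was 0.29. Without LiKM 2, LiK 1 or LiK 2, 0 of the 13 were called by edgeR, with 3 to 5 at an unadjusted p under 0.05, and DESeq2 on all mice called 3.

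Mitosis genes, which act after replication, were set beside the ring. Of 16, 15 rose, where 5.11% of all genes tested did, and the median log2 fold change was 2.34. In LiK 1, LiK 2 and LiK 3, Bub1 had 12, 3 and 2 counts and Plk1 9, 9 and 20. Both passed the filter through their LiKM counts. Aurkb, Ccnb1 and Cdc20 had 10 counts in LiK 2, at the edge of the filter. The share of risers is therefore not free of the filter. The smallest adjusted p belonged to Top2a (2.69, SE 0.28), Tpx2 (2.33, SE 0.28), Cdk1 (2.19, SE 0.27) and Racgap1 (2.31, SE 0.31), with edgeR Benjamini-Hochberg adjusted p between 0.0104 and 0.0155. The mice were ordered differently by the lists. The mean of Mcm2 to Mcm7 lay 2.16, 2.80 and 1.13 log2 units above its LiK mean in LiKM 1, LiKM 2 and LiKM 3, while the mitosis mean lay 1.99, 2.06 and 2.51 units above. LiKM 3 thus had the lowest ring genes and the highest mitosis genes of its genotype. Helicase partners (1.16, 1.74 and 0.87) and polymerases (0.89, 1.09 and 0.44) followed the order of the ring. Mitosis calls numbered 10 without LiKM 1, 1 without LiKM 2, 11 without LiKM 3, 3 without LiK 1, 1 without LiK 2 and 8 without LiK 3.

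Markers of other cell types moved with the genotype too. Of 11 tested T and natural killer cell markers, 9 rose, where 5.11% of all genes tested did, with the summed level of the 12 listed at 21.7 to 31.6 CPM in LiKM and 4.39 to 7.80 CPM in LiK. Of these 9, 8 had under 10 counts in every LiK library and passed the filter through their LiKM counts. The T cell marker Cd4 was not called and went the other way (log2 fold change -0.94, SE 0.41). For macrophages, 4 of 8 markers rose (365 to 508 CPM in LiKM, 228 to 305 CPM in LiK), and for stellate cells 2 of 8 (378 to 470 CPM in LiKM, 141 to 250 CPM in LiK). Of the tested markers of B cells (5), neutrophils (3), red cell precursors (4), bile duct cells (6) and endothelial cells (6), 0 were called by edgeR (4 of bile duct cells and 3 of endothelial cells at an unadjusted p under 0.05, and 2 of bile duct cells by DESeq2). Their sums were 5.81 to 8.20 CPM in LiKM and 3.98 to 8.66 CPM in LiK for B cells and 5.54 to 16.6 CPM in LiKM and 4.55 to 10.2 CPM in LiK for neutrophils. For red cell precursors they were 68.2 to 92.7 CPM in LiKM and 28.1 to 114 CPM in LiK. For bile duct cells they were 164 to 340 CPM in LiKM and 134 to 294 CPM in LiK, and for endothelial cells 150 to 224 CPM in LiKM and 148 to 167 CPM in LiK. With 1 mouse left out, edgeR called 1 to 8 of the T and natural killer cell markers (1 without LiK 2), 0 to 4 of the macrophage markers (0 without LiKM 2 or LiK 1) and 0 to 3 of the stellate cell markers (0 without LiKM 1, LiKM 2, LiK 1 or LiK 2). No listed marker was at 0 in all libraries. Which cells held the Mcm transcripts cannot be read from bulk counts, and the part of these markers in the Mcm values was not tested.

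Patterns over the 6 livers were compared with the root-mean-square difference of gene-centred log2 CPM, a distance in log2 units that is 0 for identical patterns. Genes that moved alike are described by it and no p is attached. Nearest to Mcm10 was Mup8 (0.16), a major urinary protein gene, with 5.07, 2.31 and 3.42 CPM in LiKM against 23.7, 12.2 and 13.1 CPM in LiK. Its reads can be shared with near-identical copies. Next came Rcan2 (0.26), which encodes a calcineurin regulator, the uncharacterised LOC622167 (0.28), the organic cation transporter gene Slc22a3 (0.32) and the glutamate transporter gene Slc1a2 (0.33). Among the nearest to Mcm5 were Fignl1 (0.27), Mcm2 (0.29), Cdca7l (0.35) and Cd80 (0.35). Fignl1 acts in recombination repair, and Cd80 encodes a costimulatory molecule of antigen-presenting cells. All 5 neighbours of Mcm10 were lower in each LiKM liver than in any LiK liver. They were picked for a pattern like that of Mcm10, so nothing further is read from this.

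The major urinary proteins belong to the genes that male mice express more in liver, under growth hormone. All 6 livers expressed the Y-linked gene Ddx3y, at 55.5 ± 0.89 CPM in LiKM and 55.7 ± 4.65 CPM in LiK, and Eif2s3y, at 41.0 ± 2.38 CPM in LiKM and 47.5 ± 2.67 CPM in LiK, and Xist did not exceed 5 counts in any. Of the 4 tested sex-linked genes, 0 were called by edgeR (0 at an unadjusted p under 0.05 and 0 by DESeq2). Of 16 tested male-biased liver genes, 6 fell in LiKM, against 0.813% of all genes tested, and their median log2 fold change was -0.99. Mup7 (-3.32, SE 0.54), Cyp7b1 (-2.97, SE 0.59), Susd4 (-2.43, SE 0.46) and Cyp2d9 (-0.89, SE 0.16) were called with the smallest edgeR Benjamini-Hochberg adjusted p, 0.0231 to 0.0364. Of 13 listed female-biased genes, 8 were tested and 3 rose (5.11% of all genes tested did). The risers were Cyp3a44 (5.08, SE 0.80), Hao2 (3.67, SE 0.71) and Cyp2b9 (2.65, SE 0.59). The other 5 tested were not called, and among them Cyp17a1 went the other way (-1.12, SE 0.47). Cyp3a44 had at most 5 counts and Hao2 at most 7 counts in a LiK library, so both passed the filter through their LiKM counts. With 1 mouse left out, 0 to 2 female-biased genes were called higher, with 0 without LiK 1 or LiK 2.

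By mouse, the male-biased mean lay at -1.02, -2.07 and -1.36 log2 units against its LiK mean in LiKM 1, LiKM 2 and LiKM 3. Mcm10 lay at -1.36, -2.56 and -2.00 in the same mice, the same order. In LiK 1, LiK 2 and LiK 3 the order differed, with the male-biased mean at 0.18, -0.03 and -0.14 and Mcm10 at 0.40, -0.40 and -0.01. Without LiKM 2, LiK 1 or LiK 2, 0 male-biased genes were called by edgeR, with 10 or 11 at an unadjusted p under 0.05, and DESeq2 on all mice called 10. The part of these genes in the Mcm10 result was not tested.

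**Figure D5:**
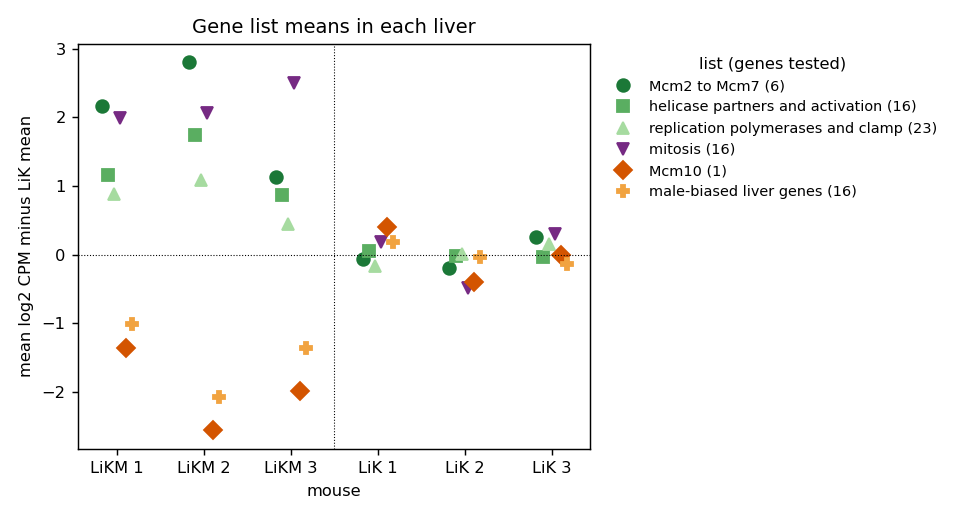
Mean log2 CPM of each list minus its mean over the LiK mice (y axis) in each mouse, LiKM left of the dotted line; the number of genes behind each mean is in the legend. Among the LiKM mice, the ring mean is lowest in LiKM 3 (1.13), where the mitosis mean is highest (2.51). Mcm10 and the mean of the male-biased genes are both lowest in LiKM 2 (-2.56 and -2.07).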

How the data were processed

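RNA-seq of whole liver from 3 LiKM and 3 LiK mice was used as raw counts per gene, deposited by the authors as a single table. FastQC 0.11.7 and featureCounts are named in the submitters' processing notes; the aligner, build, annotation and strand setting were not given in the sources used here. All 6 sample columns were used and 0 were left out. Totals ranged from 19909993 to 24874343 counts, and 6335 of 26608 gene rows were at 0 in all libraries.

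Counts were tested with edgeR 4.0.16 in R 4.3.3: filterByExpr (minimum count 10, minimum total 15), TMM scaling and the quasi-likelihood test with genotype as the only term, adjusted by the Benjamini-Hochberg method over the 13537 genes tested. It called 802 genes (5.92%). CPM use TMM library sizes, and log2 CPM a prior count of 2. Alternatives were other scalings, filters, DESeq2 1.42.0, a replicate block and leaving out each mouse. The test code was checked on simulated counts. Transcript lengths came from GENCODE M21 (GRCm38), promoters from RefSeq (GRCm38.p6), and both were matched by symbol.

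The Mcm genes and all lists were chosen with earlier results of these data known. From each list other than markers, up to 4 called genes with the smallest adjusted p were named or, with 0 called, up to 2 of the most abundant, besides the 5 nearest patterns to Mcm10 and Mcm5 and the neighbours of Mcm10; some items that this rule or the design would name are not reported here. Cdc6, Cdc7, 5730590G19Rik, Gins4, Cdc45, Pcna, 6030422M02Rik, E2f1, Bub1, Plk1, Aurkb, Ccnb1, Cdc20, Birc5, Cd4, Cyp17a1, Mdm2 and the genes overlapping Mcm7 and Mcm9 were added after their values were seen. So were those under other observations.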

Additional observations from a re-analysis of the deposited data

How the results depend on the processing

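The count of genes called was 802 and lay between 754 and 852 with the other scalings and filters, whereas DESeq2 called 1546. Leaving out 1 mouse gave 19 to 626 calls, namely 376, 47 and 626 on omitting LiKM 1, LiKM 2 or LiKM 3 in turn, and 31, 19 and 311 on omitting LiK 1, LiK 2 or LiK 3. Of replication genes besides Mcm2 to Mcm10, 12 were called, 25 with DESeq2 and 0 to 18 with 1 mouse left out. The Mcm10 value relative to Mcm2 to Mcm7 stayed negative in every alternative, at -4.44 to -3.32 with 1 mouse left out. Mcm9 turned to a log2 fold change of 0.055 without LiKM 3, its lowest value over the omissions being -0.224. Mcm4 was called with no filter, with DESeq2 and without LiKM 3, and Mcm8 with DESeq2 and without LiKM 3. The cause was not tested. With the replicate number as a block, 835 genes and 12 replication genes were called, while Mcm2 was no longer called. The Mcm10 value was -4.00 there too, but this block cannot change it. The mean of same-numbered differences equals the difference of the genotype means. The numbers were not taken to pair the mice, because the titles give separate animal codes. Deviations of same-numbered mice correlated at 0.267, 0.00 and 0.127 over genes, and those of differently numbered mice at -0.197 to 0.046. These values do not settle whether the numbers pair the mice. Precision is limited by 3 mice per genotype, and for Mcm8 and Mcm9 by their low counts.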

Other observations

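Nearest patterns were also listed for the other Mcm genes, chosen after their values were seen and given without a test. Mcm3 lay nearest to Chaf1a, a subunit gene of the chromatin assembly factor that works behind the fork, at 0.142 log2 units. Chaf1a had 7.19, 13.4 and 3.71 CPM in LiKM against 1.30, 1.71 and 1.85 CPM in LiK. Mcm7 lay nearest to Tmtc3 (0.056) and then to Topbp1 (0.083), and the mismatch repair gene Msh6 was also among its 5 nearest (0.116). Msh6 had 28.2, 36.0 and 22.5 CPM in LiKM against 13.7, 16.2 and 13.9 CPM in LiK. Mcm8 lay near the primase gene Prim2 (0.132), which was not called. Mcm9 lay nearest to Ermp1 (0.047), whose LiKM and LiK mice overlapped as those of Mcm9 did.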
